A study of Mus musculus with 12 samples.

Results

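DBP, TEF and HLF are the PAR bZIP transcription factors, basic leucine zipper proteins with a region rich in proline and acidic residues, and E4BP4, encoded by Nfil3, is the repressor that competes with them. The transcripts of these 4 genes, Dbp, Tef, Hlf and Nfil3, were followed in the mouse olfactory epithelium, the smell-sensing lining of the nose, which holds olfactory sensory neurons with their supporting, basal and gland cells. The 4 genes were taken by the symbol of the probe annotation from 19937 measured genes, and each was read by 1 probe set (10553092 for Dbp, 10425601 for Tef, 10389786 for Hlf and 10409278 for Nfil3). The tissue came from 48 male C57BL/6 mice that had been entrained to a light and dark cycle and then moved to constant darkness, with no other treatment named in the labels and no age given in the sources used here. Mice were killed every 4 h from circadian time (CT) 12 to CT56. At each of the 12 time points material from 4 mice was pooled and measured on 1 array, so that each of 6 phases of the day was sampled by 2 pools that lie 24 h apart. In constant darkness CT 0 to 12 is called the subjective day, when mice rest, and CT 12 to 24 the subjective night. All p-values therefore describe how pools vary rather than how single mice vary, and precision is limited by having 12 arrays.

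In many mouse tissues the clock activator pair of CLOCK and BMAL1 binds E-boxes and drives Dbp, whose protein, like TEF and HLF, then binds D-boxes in other genes and activates them. E4BP4 binds the same D-boxes and represses, and its gene is itself held down by the REV-ERB repressors through ROR response elements (ROREs). In liver the activators and E4BP4 alternate over the day, and the PAR bZIP factors there drive genes of detoxification and lipid metabolism.

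The tissue label was checked first. Omp, the olfactory marker protein of mature sensory neurons, read between 12.7 and 13.08 log2 units in the 12 pools, and Cyp2g1, a cytochrome of sustentacular supporting cells, between 13.64 and 13.79. The column medians lay between 7.81 and 7.92. Over all probes the array of CT56 had the lowest mean correlation with the rest, 0.975, and CT32 the next lowest, 0.981. Both pools belong to CT 8, the phase at which Dbp is highest, so the rhythms are given with and without each of them. Of all genes, 23.2% had their highest value in the CT32 pool and 15.9% in CT56.

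The stretch of 250 bases before each annotated start is printed for all 4 genes to show which of the elements named above it holds. They are from RefSeq, build GRCm38.p6, written 5′ to 3′ in the direction of the gene, with matches in capitals. The motifs searched on both strands were the E-box CACGTG, the related E-prime box CACGTT, the D-boxes TTATGTAA and TTACGTAA, the RORE cores TAGGTCA and TGGGTCA, and the cAMP response element TGACGTCA. The Dbp window lies at chr7:45704997-45705246 on the plus strand. Tef has 2 annotated starts, with windows at chr15:81802423-81802672 and chr15:81811164-81811413, both on the plus strand. The windows of Hlf at chr11:90390918-90391167 and of Nfil3 at chr13:52981040-52981289 are on the minus strand.
Dbp: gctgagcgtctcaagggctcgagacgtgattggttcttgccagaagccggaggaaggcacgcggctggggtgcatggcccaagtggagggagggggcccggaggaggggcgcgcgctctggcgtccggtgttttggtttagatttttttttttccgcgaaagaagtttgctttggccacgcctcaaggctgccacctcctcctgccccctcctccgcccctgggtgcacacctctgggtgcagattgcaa
Tef, start 1: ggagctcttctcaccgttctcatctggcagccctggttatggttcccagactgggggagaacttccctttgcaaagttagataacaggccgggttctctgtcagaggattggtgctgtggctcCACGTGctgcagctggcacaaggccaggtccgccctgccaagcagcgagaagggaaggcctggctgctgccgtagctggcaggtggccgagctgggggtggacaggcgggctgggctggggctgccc
Tef, start 2: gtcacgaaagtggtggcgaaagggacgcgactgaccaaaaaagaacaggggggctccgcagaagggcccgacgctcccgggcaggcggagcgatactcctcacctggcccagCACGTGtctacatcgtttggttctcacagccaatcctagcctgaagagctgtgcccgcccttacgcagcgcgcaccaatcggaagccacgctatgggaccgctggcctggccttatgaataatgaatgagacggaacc
Hlf: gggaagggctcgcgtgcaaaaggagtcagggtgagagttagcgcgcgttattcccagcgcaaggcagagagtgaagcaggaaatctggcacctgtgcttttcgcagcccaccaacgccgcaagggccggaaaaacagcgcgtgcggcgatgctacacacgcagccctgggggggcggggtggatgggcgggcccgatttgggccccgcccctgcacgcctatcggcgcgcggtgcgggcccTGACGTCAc
Nfil3: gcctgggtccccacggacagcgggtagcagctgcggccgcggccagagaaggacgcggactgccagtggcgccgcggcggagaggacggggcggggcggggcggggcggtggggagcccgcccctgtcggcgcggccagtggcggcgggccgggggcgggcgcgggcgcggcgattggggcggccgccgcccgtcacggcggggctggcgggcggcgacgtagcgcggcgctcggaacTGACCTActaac

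Both Tef windows held an E-box, the first from base -127 and the second from base -138, counted back from the start. Of 32851 windows of this length in the table, 6.02% held CACGTG. The Nfil3 window held TAGGTCA on the opposite strand, written TGACCTA above, from base -12. Of all windows 2.23% held this core and 3.24% held the other RORE core searched, TGGGTCA. The Hlf window held TGACGTCA from base -9, as 1.55% of windows did. The Dbp window matched 0 of the motifs, which says only that these letters are not in this stretch. D-boxes, found in 0.819% of windows as TTATGTAA and in 0.113% as TTACGTAA, were in 0 of the 5 windows. The Nfil3 window had a GC content of 81.6%, higher than or equal to 99.3% of windows, against 62.4% for Dbp, 63.6% and 60.4% for Tef and 67.2% for Hlf, and a median of 52.4% over all windows.

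Dbp, the activator most directly driven by the clock, swung with the time of day in both cycles. It read 9.46, 8.86, 8.98, 8.94, 9.55 and 9.80 log2 units at CT12, CT16, CT20, CT24, CT28 and CT32, and 9.59, 8.99, 8.85, 9.05, 9.56 and 9.91 in the 6 pools from CT36 to CT56. The pools of CT 4, 8 and 12 were thus all high and those of CT 16, 20 and 0 all low. The 6 high pools lay between 9.46 and 9.91 and the 6 low ones between 8.85 and 9.05, and 0.271% of genes had no overlap in this direction. This split was picked after the values were seen, so it carries no test. In the 24 h cosine fit over all genes the amplitude of Dbp, the distance from its mean to its peak, was 0.51 ± 0.05 log2 units (SE, 12 pools). The fitted peak was CT 7.8 ± 0.36 h. It had the smallest p of all genes (limma, adjusted p = 0.00173) and was 1 of 5 genes past the threshold, or 0.0251% of those tested. Leaving out each pool in turn kept the call, with limma's highest adjusted p at 0.0149. Without CT32 the amplitude was 0.51 and without CT56 it was 0.48. With a period of 22 h the call was lost (limma, adjusted p = 0.162).

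**Figure D1:**
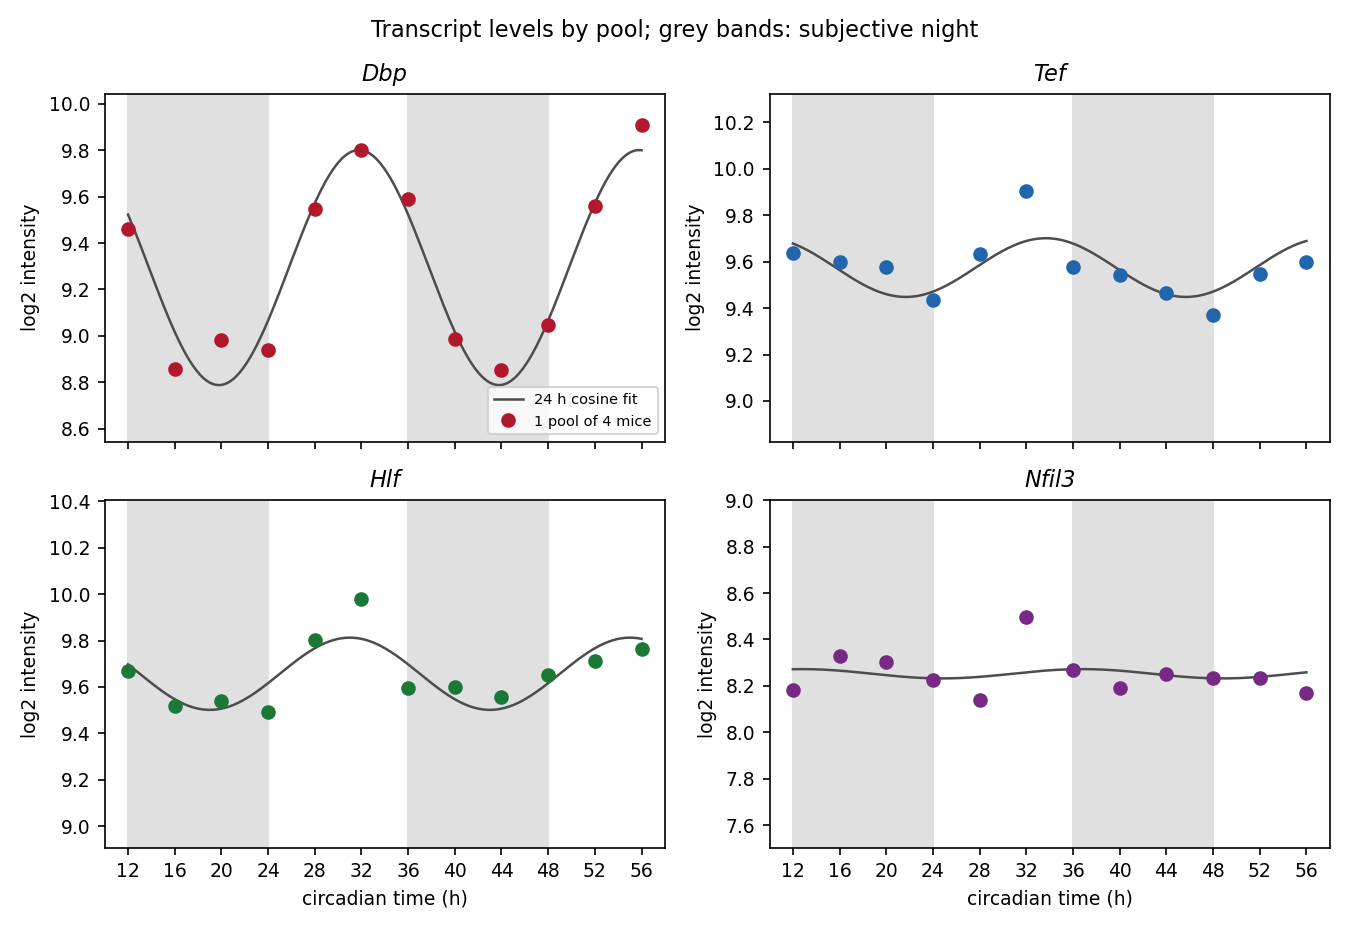
Log2 intensity (vertical axis) of Dbp, Tef, Hlf and Nfil3 against circadian time in h (horizontal axis), with 1 point per pool of 4 mice, the 24 h cosine fit as a line and the subjective night in grey. All panels span the same height. Dbp follows the curve in both cycles and the CT32 point of Tef, Hlf and Nfil3 lies above it.

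The order of the phases was steep in Dbp. The mean of the 2 pools was 9.85 ± 0.08 at CT 8, then 9.55 ± 0.01 at CT 4 and 9.53 ± 0.09 at CT 12, followed by 8.99 ± 0.08 at CT 0, 8.92 ± 0.09 at CT 16 and 8.92 ± 0.09 at CT 20 (SD, n = 2 each). The step between CT 12 and CT 0 was 0.53, and that between CT 8 and CT 4 was 0.30, both larger than the pooled SD within phases of 0.08. The neighbours CT 4 and CT 12, and CT 0, CT 16 and CT 20, did not differ beyond that spread. Of the variance of Dbp over pools 97.8% lay between phases, against a median of 56.6% over all genes. The 24 h cosine took 93.6% of the variance of Dbp. Dbp was already near its lowest value at CT 16, where the 2 pools read -0.16 and -0.03 relative to the fit, and stayed low to CT 0. The pool farthest from the fit was CT20, at 0.19. A 12 h term, fitted for every gene, asked for a departure from a single cosine, and none was detected in Dbp. The amplitude of that term was 0.09 (limma, adjusted p = 0.817), in a test that called 0 of 19937 genes (0%), with 1063 genes (5.33%) at an unadjusted p under 0.05.

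Hlf, the gene of the PAR bZIP protein hepatic leukemia factor, shared the high values of Dbp at CT 4 and CT 8 but not at CT 12, over a narrower range. Its mean at CT 12, 9.63, and that at CT 0, 9.57, did not differ beyond the pooled SD within phases of 0.09. It read 9.67, 9.52, 9.54, 9.49, 9.80 and 9.98 log2 units from CT12 to CT32 and 9.59, 9.60, 9.56, 9.65, 9.71 and 9.76 from CT36 to CT56. The highest pools of each cycle were those of CT 4 and CT 8, in the subjective day, and the night pools lay close together. The amplitude was 0.16 ± 0.04 (SE, 12 pools), with a peak at CT 7.0 ± 1.1 h. This did not pass over all genes (limma, adjusted p = 0.996, unadjusted p = 0.00983), where 3.54% of genes had an unadjusted p under 0.05. Without the CT32 pool the amplitude was 0.12, and without CT56 it was 0.17. Between phases lay 78.2% of its variance.

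Tef, thyrotroph embryonic factor, the third activator and the gene with an E-box in both windows printed above, covered a range of 0.54 log2 units, against 0.49 for Hlf and 1.05 for Dbp. It read 9.64, 9.60, 9.58, 9.44, 9.63 and 9.90 log2 units from CT12 to CT32, and 9.58, 9.54, 9.47, 9.37, 9.55 and 9.60 from CT36 to CT56. The CT32 pool was far above the rest, and the lowest pool of each cycle was that of CT 0. The amplitude was 0.13 ± 0.05 (SE, 12 pools) with a peak at CT 9.7 ± 1.4 h, and it did not pass over all genes (limma, adjusted p = 0.996, unadjusted p = 0.0502). Without the CT32 pool it was 0.085, and without CT56 it was 0.14. The 2 pools of CT 8 differed by -0.30 (CT56 minus CT32), while the other phases repeated to within 0.11. Between these 2 pools 15.4% of all genes had a lower difference than Tef, and the median gene had one of -0.074.

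Nfil3, the gene of the repressor E4BP4 and the one whose window held a RORE core, had no detected 24 h swing, in the phase of Dbp or opposite to it. It read 8.18, 8.33, 8.31, 8.23, 8.14 and 8.50 log2 units from CT12 to CT32 and 8.27, 8.19, 8.25, 8.23, 8.24 and 8.17 from CT36 to CT56. Apart from the CT32 pool, all readings lay between 8.14 and 8.33, and no 2 neighbours in the order of its 6 phase means differed beyond the spread within phases of 0.11. The amplitude was 0.02 ± 0.05 (SE, 12 pools), with an approximate 95% interval that reached 0.12 (limma, adjusted p = 0.996, unadjusted p = 0.911). The peak time, CT 12.8, had an SE of 8.8 h and is not defined. Without the CT32 pool the amplitude was 0.051 with a peak at CT 18.5 (limma, adjusted p = 0.962), and without CT56 it was 0.032. Its 2 pools of CT 8 differed by -0.33 (CT56 minus CT32), and 13.2% of all genes had a lower difference. Of its variance 26.2% lay between phases.

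The difference in rhythm between genes was tested by itself, as the 24 h fit of the log2 difference of 2 genes in each pool, for all 6 pairs. The amplitude of that difference was 0.40 for Dbp against Tef, 0.36 for Dbp against Hlf and 0.50 for Dbp against Nfil3. A permutation test of the pool order, in which either direction counts, gave p = 0.00077, 0.00117 and 6e-04 for these pairs, or 0.00231, 0.00234 and 0.00231 after Benjamini-Hochberg adjustment over the 6 pairs. For Hlf against Nfil3 it was 0.16 (permutation p = 0.0139, adjusted p = 0.0209) and for Tef against Nfil3 0.11 (permutation p = 0.0223, adjusted p = 0.0268). For Tef against Hlf it was 0.10 (permutation p = 0.0287, adjusted p = 0.0287), which did not pass without the pool at CT16, CT28, CT36 or CT52, with an adjusted p between 0.0510 and 0.0913. The genes were chosen with their rhythms known, so these p-values describe the pairs and are not independent evidence.

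In size, the amplitude of Dbp exceeded that of Hlf by 0.35 (95% interval 0.23 to 0.47) and that of Tef by 0.38 (0.25 to 0.51). The amplitudes of Tef and Hlf differed by -0.03, with an interval from -0.12 to 0.06. In time, the Dbp peak was 0.78 h after that of Hlf (interval -1.24 to 2.80 h) and -1.88 h relative to that of Tef (interval -4.80 to 1.04 h). Both intervals hold 0. The Tef peak was 2.66 h after that of Hlf, with an interval from 0.19 to 5.13 h. Neither of these genes passed the 24 h test, and the interval is approximate and not adjusted over the pairs.

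**Figure D2:**
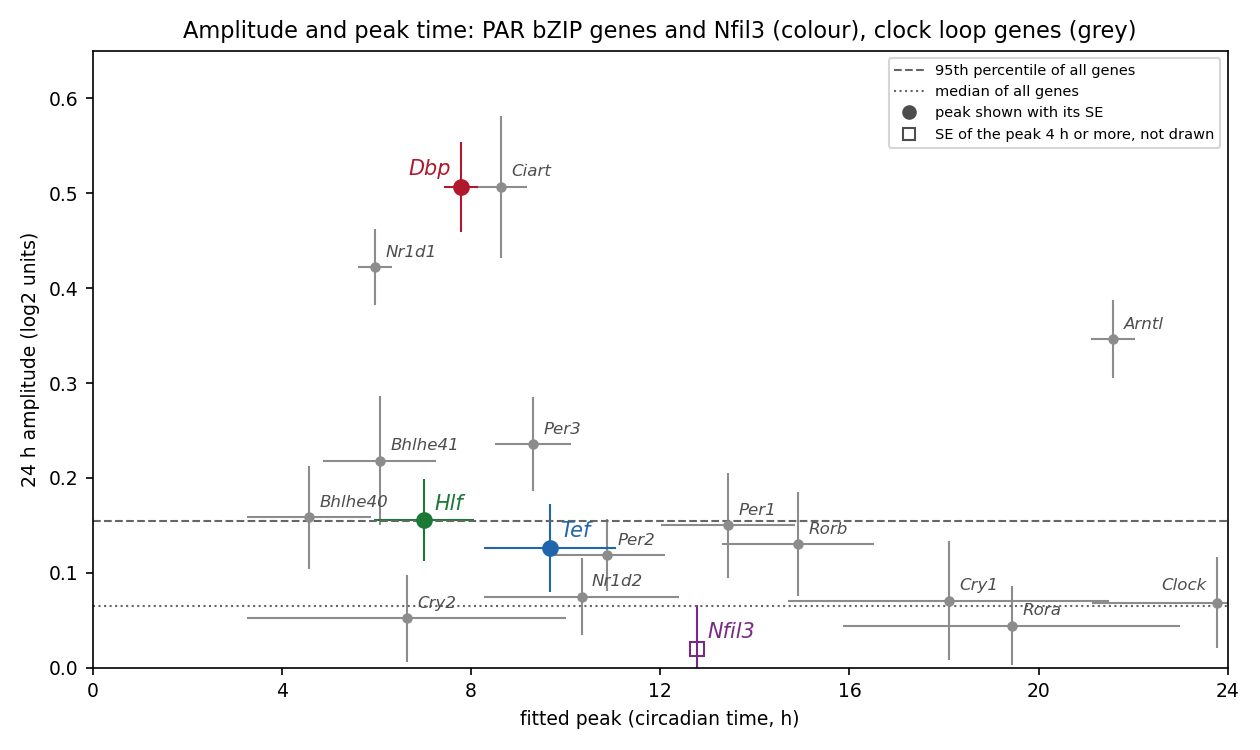
24 h amplitude in log2 units (vertical axis) against the fitted peak in circadian time (horizontal axis) for Dbp, Tef, Hlf and Nfil3 in colour and 14 clock loop genes in grey, with SE bars. The lines mark the median of all genes, 0.065, and their 95th percentile, 0.154. Dbp lies at 0.51 and CT 7.8, with Hlf and Tef beside the upper line and Nfil3 below the median.

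Day was then set against night, which asks whether the genes differ between rest and activity phase without assuming a cosine. Dbp averaged 9.47 ± 0.39 by day and 9.12 ± 0.32 by night (SD, n = 6 each), a difference of 0.34 ± 0.17 (SE, limma, adjusted p = 0.497). Here CT 12, a high phase of Dbp, is counted as night and CT 0, a low one, as day. Hlf averaged 9.73 ± 0.16 by day and 9.58 ± 0.05 by night, with a difference of 0.15 ± 0.07 (limma, adjusted p = 0.497, unadjusted p = 0.0455), and 5.69% of genes had an unadjusted p under 0.05 with the higher mean by day. The Hlf difference was 0.095 with quantile normalization (limma, adjusted p = 0.676) and 0.041 with array weights (limma, adjusted p = 0.708), and that of Dbp 0.099 with array weights (limma, adjusted p = 0.691). Tef averaged 9.58 ± 0.19 by day and 9.57 ± 0.06 by night, and Nfil3 8.25 ± 0.13 by day and 8.25 ± 0.06 by night. Day and night pools overlapped in all 4 genes. Across all genes 0 of 19937 passed in limma (0%), against 9.86% at an unadjusted p below 0.05. In 35 genes (0.176%) every day pool lay above every night pool, and in 11 (0.0552%) every day pool lay below. The signs of the Tef and Nfil3 differences, 0.015 and -0.0032, turned under other scalings.

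Pools of the second cycle were set against those of the first at the same phase, to see whether levels drifted in constant darkness. Time in darkness and any batch that runs with the cycle cannot be told apart here. Tef averaged 9.52 in the second cycle and 9.63 in the first, a difference of -0.11 ± 0.05 (SE, limma, adjusted p = 0.390, unadjusted p = 0.0562), and the second cycle was higher in 0 of 6 pairs of pools. The median of all genes was -0.026. Dbp averaged 9.32 in the second cycle and 9.27 in the first, higher in 5 of 6 pairs (limma, adjusted p = 0.675). Hlf averaged 9.65 and Nfil3 8.22 in the second cycle, against 9.67 and 8.28 in the first (limma, adjusted p = 0.913 and 0.750). The Nfil3 difference was -0.055 over the 6 pairs, but -0.0011 without CT32 or its partner CT56. That of Dbp was 0.059, but 0.096 without CT20 or CT44 and 0.012 with array weights. Here limma called 0 of 19937 genes (0%), against 13.2% at an unadjusted p below 0.05.

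Fitted within each cycle alone, Dbp kept a like rhythm. Its amplitude was 0.54 ± 0.07 with a peak at CT 7.9 in the second cycle and 0.48 ± 0.07 with a peak at CT 7.6 in the first (SE, 6 pools each). Hlf had 0.09 ± 0.07 in the second cycle and 0.23 ± 0.07 in the first, and Tef 0.10 ± 0.07 in the second and 0.16 ± 0.07 in the first. The change of rhythm between cycles, as an interaction, did not pass for any of the 4 genes (limma, adjusted p = 0.9999 for each, unadjusted p between 0.26 and 0.842). Nor did it for any of 19937 genes (0%), of which 0.717% had an unadjusted p under 0.05.

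The clock loop, which drives these factors, gives the timing around them. Of 16 listed genes 14 were measured and 2 passed in limma, Nr1d1 and Arntl, against 0.0251% of all genes. At an unadjusted p under 0.05 there were 7 of 14, against 3.54% of all genes. Nr1d1, the gene of the repressor REV-ERB alpha, peaked at CT 6.0 ± 0.36 h with an amplitude of 0.42 ± 0.04, against CT 7.8 for Dbp. Arntl, the gene of BMAL1, peaked at CT 21.6 ± 0.46 h with an amplitude of 0.35 ± 0.04. Over the 12 pools Dbp had a Pearson r of 0.85 with Nr1d1, 0.87 with Per3 and 0.83 with Ciart, a repressor of CLOCK and BMAL1, and of -0.81 with Arntl. By r with Dbp, Hlf was gene 53 of 19936 and Tef gene 627, and Arntl was gene 19911, close to the bottom. Hlf had an r of 0.81 with Nr1d1 and -0.58 with Arntl, and Tef one of 0.47 with Nr1d1 and -0.73 with Arntl. For Nfil3 these were 0.07 and -0.11 over 12 pools, but -0.55 with Nr1d1 and 0.33 with Arntl without the CT32 pool. These correlations are descriptions, since genes with any 24 h rhythm at like hours correlate and all values come from the same 12 arrays.

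Of the 8 clock genes known to carry D-boxes, the sites that these factors bind, 1 passed in limma, Nr1d1, against 0.0251% of all genes. At an unadjusted p under 0.05 there were 3 of 8, against 3.54% of all genes. The list's median amplitude was 0.12, against 0.14 for the 14 clock loop genes and 0.065 over all genes. All 8 are among those 14, so these counts are part of the clock loop counts. Of the clock loop genes outside the 8, Arntl, Ciart, Bhlhe40 and Bhlhe41 also had an unadjusted p under 0.05 in limma, and Clock and Cry2 did not. Per2, a period gene with a D-box that E4BP4 represses in other cells, peaked at CT 10.9 with an amplitude of 0.12 ± 0.04.

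Genes that PAR bZIP factors drive in liver, kidney, gut, brain or pituitary were taken as a list of 15, of which 12 were measured as single-symbol probes. Por, Cyp2a4 and Cyp2a5 were not analysed here. Over all genes limma called 0 of these 12. At an unadjusted p below 0.05 there was 1, Usp2, a deubiquitinase, with 0.20 ± 0.05 and a fitted peak of CT 11.1 (limma, adjusted p = 0.857), against 3.54% of all genes. The list's median amplitude was 0.064, against 0.065 over all genes. Some of the 12 genes read low, with means of 4.16 for Cyp3a11, 5.34 for Tshb, 5.36 for Cyp7a1 and 6.67 for Nr1i3. The column medians lay between 7.81 and 7.92, and a rhythm at such low readings may not show. Cyp3a13, a drug-metabolising cytochrome, had an amplitude of 0.15 ± 0.06 with a fitted peak at CT 11.5, and Alas1, the first enzyme of heme synthesis, one of 0.09 ± 0.04 with a fitted peak at CT 16.4 (limma, adjusted p = 0.996 for both). Aldh1a1, which makes retinoic acid, had one of 0.10 ± 0.06 (limma, adjusted p = 0.996). Between day and night 2 of the 12 genes read higher by day and 10 lower, and 0 passed. The median difference was -0.04, against 0.004 over all genes, whose median absolute difference was 0.077. Among the 10, Tshb, Abcb1a and Ppara differed by only -0.0002, -0.004 and -0.01. The share of all genes lower by day was not counted, so the 10 of 12 has no background here.

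Genes under E4BP4 in immune cells, liver and gut were all measured, 8 of 8, and 0 passed in limma, with 2 at an unadjusted p under 0.05, against 3.54% of all genes. The larger was Eomes, a T-box factor of natural killer cells, with 0.30 ± 0.06 and a fitted peak of CT 8.5 (limma, adjusted p = 0.518), and the other was Per2. Id2, an inhibitor of helix-loop-helix factors, had 0.15 ± 0.05 and Cyp7a1, the rate-limiting enzyme of bile acid synthesis, 0.08 ± 0.06. Cyp7a1 read low, with a mean of 5.36. Their list had a median of 0.065. Of the C/EBP relatives, which share the basic leucine zipper fold, 0 of 6 passed and 0 had an unadjusted p under 0.05. Ddit3, a stress factor of that family, had the smallest p with an amplitude of 0.21 ± 0.09, and Cebpe had 0.12 ± 0.09, Cebpb 0.05 ± 0.04 and Cebpg 0.04 ± 0.05 (limma, adjusted p = 0.996 for each).

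**Figure D3:**
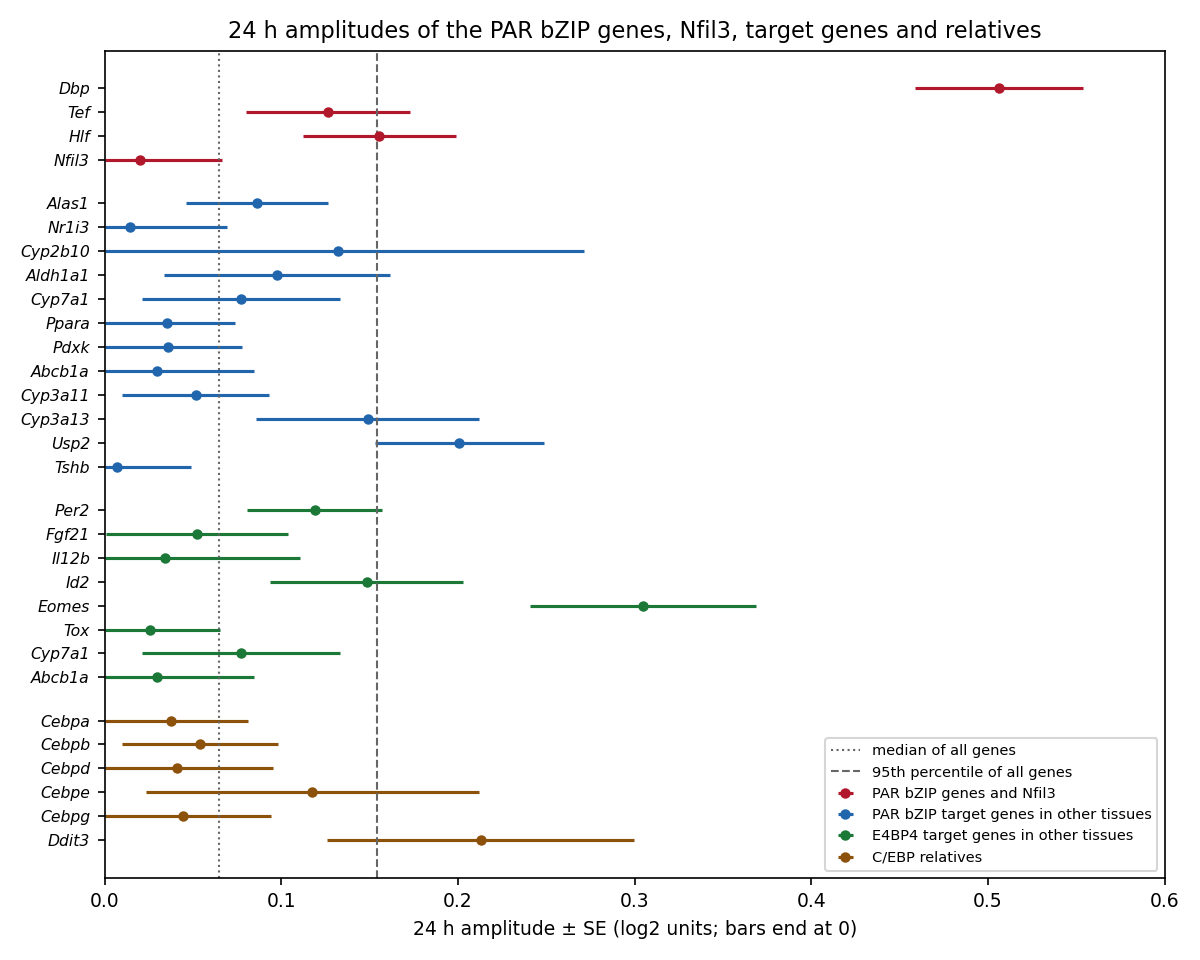
24 h amplitude with SE in log2 units (horizontal axis) for Dbp, Tef, Hlf and Nfil3, 12 PAR bZIP target genes, 8 E4BP4 target genes and 6 C/EBP relatives, 1 row per gene. The dotted and dashed lines are the median, 0.065, and the 95th percentile, 0.154, of all genes. Among the target genes Usp2 and Eomes lie beyond the dashed line, and Dbp at 0.51 lies beyond all of them.

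The genes most like each of the 4 were then named by Pearson r over the 12 pools, leaving out predicted genes and chemoreceptors. For Dbp they were Lrp2bp, Inha, Dagla, Spats1 and Gramd1c, with r between 0.90 and 0.92. Dagla, which makes the endocannabinoid 2-arachidonoylglycerol, ranged between 8.41 and 9.02, and Inha, an inhibin subunit, between 8.23 and 8.62. The genes with the lowest r were Slc37a2, a sugar phosphate exchanger, at -0.95, Kirrel2, an adhesion molecule of sensory axons, at -0.94, and Adgrf1, an adhesion receptor, at -0.93, with fitted peaks between CT 19.3 and CT 20.6. Without the CT32 pool these 8 genes had an r of at least 0.88 or at most -0.92 with Dbp.

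Of the 5 genes nearest to Dbp, 3 had their highest value at CT32. All 5 genes nearest to Hlf, all 5 nearest to Tef and all 5 nearest to Nfil3 had their highest value at CT32. Tef, Hlf and Nfil3 were highest in that pool too, and so were 23.2% of all genes. These nearest genes were picked by r with genes highest at CT32, so a shared highest pool follows in part from the choice. For Hlf these were Dusp4, a phosphatase of MAP kinases, Tspo, a translocator of the outer mitochondrial membrane, Lonrf2, Ptgs2, the inducible cyclooxygenase, and Pgap4, with r between 0.88 and 0.93, and between 0.74 and 0.89 without that pool. For Tef they were Zgpat, Dpp4, a serine peptidase, Dlec1, Mttp, a lipid transfer protein, and Olfml2b, with r between 0.90 and 0.95, and between 0.78 and 0.86 without it. For Nfil3 they were Anapc7, a subunit of the anaphase-promoting complex, Pex14, a peroxisomal import factor, Nphp4, Foxo4 and Rasd1, with r between 0.87 and 0.91, and between 0.59 and 0.79 without it. At CT56 the 5 genes nearest to Hlf also read above their means, by between 0.10 and 0.40 log2 units. Those nearest to Tef lay between -0.047 and 0.18 there, and those nearest to Nfil3 between -0.12 and -0.019. The lowest r with Nfil3 were those of Mkrn1-ps1, Clca3a2 and Dcaf8l, each at its lowest at CT32. The r between the activators and Nfil3 also turned on that pool. Hlf and Nfil3 had an r of 0.30 over 12 pools and of -0.76 without CT32, Dbp and Nfil3 0.05 and -0.55, and Tef and Nfil3 0.58 and -0.17. Among the activators, Dbp and Hlf had 0.80 with that pool and without it, Dbp and Tef 0.62 with it and 0.53 without it, and Tef and Hlf 0.73 with it and 0.38 without it.

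**Figure D4:**
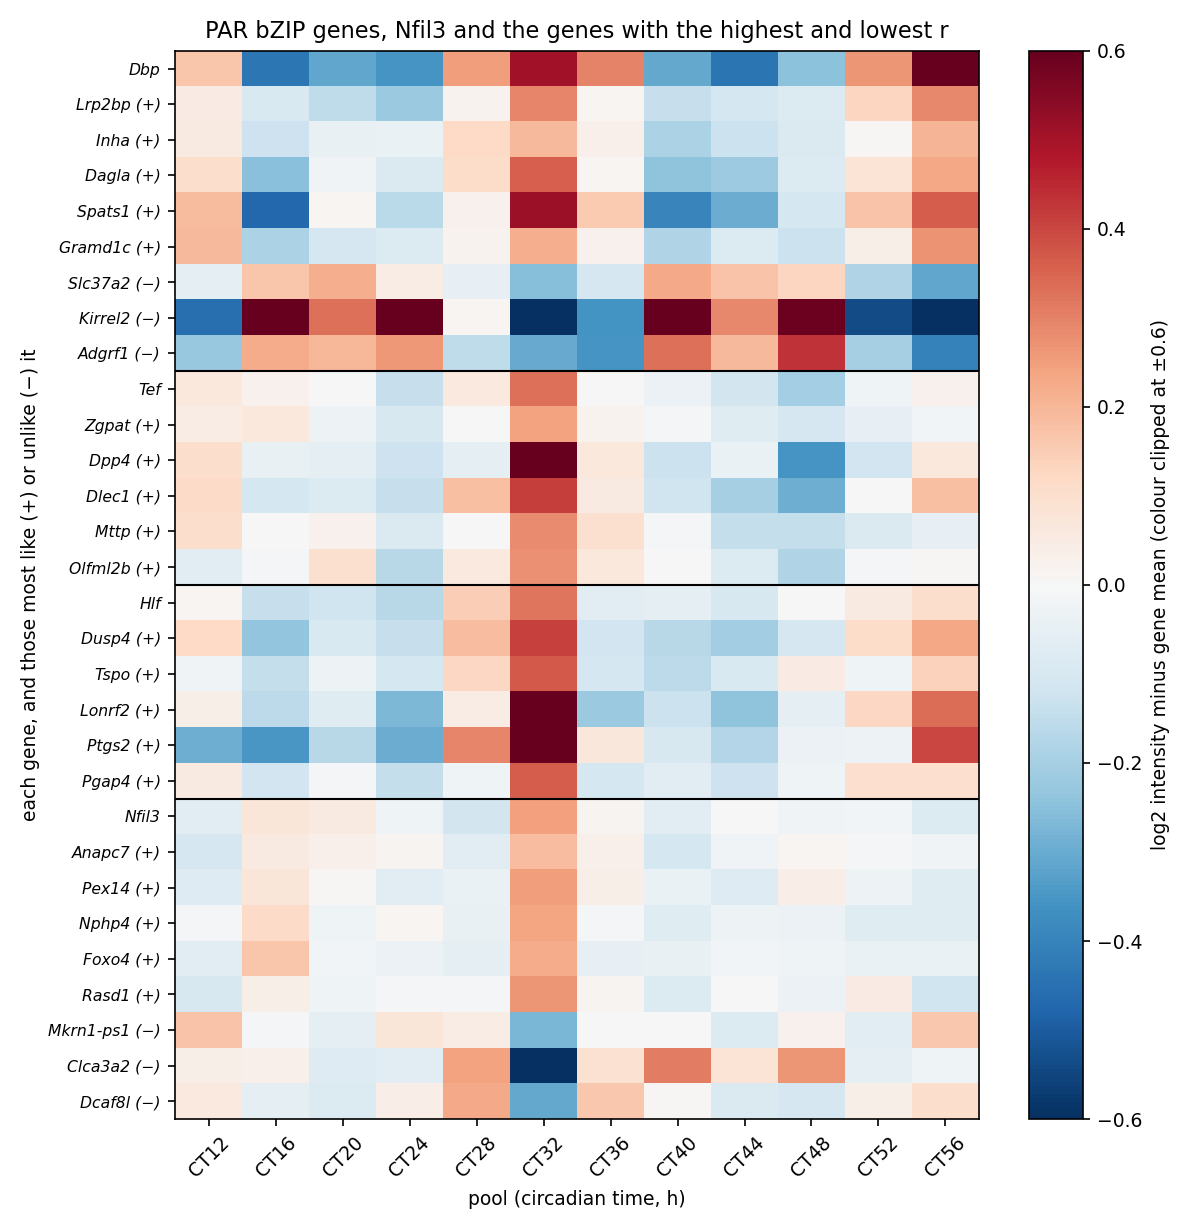
Log2 intensity minus the gene's mean (colour, clipped at ±0.6) for Dbp, Tef, Hlf and Nfil3 and the genes with the highest (+) and lowest (−) r to each (rows) in the 12 pools (columns). Dbp and its highest-r genes are high at CT32 and at CT56. The highest-r genes of Tef, Hlf and Nfil3 are highest in the CT32 column, and those of Hlf are also above their means at CT56.

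Cell type markers were set beside these results, since in bulk tissue fewer cells of a type and less RNA per cell cannot be told apart. Of 11 marker lists, 0 had their highest mean at CT32, but some came close. The mature sensory neuron list read 12.15 there against a highest mean of 12.21, the basal cell list 8.61 against 8.63 and the macrophage list 7.96 against 7.99. Other lists were near their lowest at CT32, with 7.10 against 7.05 for neutrophils and 7.34 against 7.25 for skeletal muscle. With Dbp, the sustentacular list had an r of -0.56 over the 12 pools, the macrophage list 0.56 and the basal cell list 0.54, and the means of these lists ranged over 0.20, 0.23 and 0.31 log2 units, against 1.05 for Dbp. The sustentacular markers did not move together. Day minus night was -0.22 for Ermn and 0.23 for Sox2, and the 24 h amplitudes of Cyp2g1, Cbr2 and Cyp1a2 were 0.012, 0.020 and 0.053. With Hlf the basal cell list had an r of 0.68, and with Tef the macrophage list 0.67. The 7 markers of lymphocytes and natural killer cells, cells in which Nfil3 is known to act, had a list mean between 6.04 and 6.34 by day and between 6.19 and 6.41 by night. By day against night, the 5 respiratory ciliated markers all read higher by day, with differences between 0.13 and 0.34 and a list mean between 8.95 and 9.29 by day and between 8.78 and 9.10 by night. The 4 basal cell markers measured also read higher by day (0.039 to 0.13), and the 5 skeletal muscle markers read lower by day (-0.17 to -0.075). The nasal gland list ranged over 4.10 log2 units with its highest mean at CT44, and its r with the 4 genes lay between -0.14 and 0.18. Its markers did not move alike. Bpifb9b lay between 5.93 and 13.12, Bpifb9a between 7.18 and 12.73 and Obp1a between 8.62 and 13.49. Muc5b stayed between 11.71 and 12.11. The part of cell composition in the results was not tested.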

How the data were processed

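Total RNA of mouse olfactory epithelium, 1 pool of 4 mice per time point, was amplified and labelled with whole-transcript kits for Affymetrix arrays, per the labels' protocols. The deposited file holds, for each probe set, a value per pool. The submitters' processing notes name affy without saying what it did. How background was corrected and arrays were normalized is not given in the sources used here. From their range, the values the authors deposited were taken to be on a log2 scale, and they were used unchanged.

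Of 34760 probe sets, 21640 have 1 gene symbol in the platform annotation, and a gene with several was taken as the one with the highest mean, which left 19937 genes. Tests used limma 3.58.1 in R 4.3.3, fitted over all genes with Benjamini-Hochberg adjustment and a threshold of 0.05. They comprised a 24 h cosine and sine, day minus night, second minus first cycle with phase as a factor, a 12 h term, and the interaction of rhythm and cycle. SEs of amplitude and peak are by the delta method. The difference between 2 genes was tested with 100000 random orders of the pools. Named genes are the 4 genes, the 5 with the highest r to each, the 3 with the lowest r to Dbp and to Nfil3, and, of each list, those past the threshold or up to 4 with the smallest p. Per3 and Ciart were named after their values were seen. The genes and lists were chosen with earlier results of these data known. Promoter windows are RefSeq's (build GRCm38.p6), and no genome was used. The fits were tested on simulated data. Alternatives were quantile normalization, median centring, filters at the 25th and 50th percentile, the mean of all probes, a trended and robust prior, weights per array, a linear drift, cycle as a block, a period of 22 or 26 h, phases as 6 levels and leaving out each pool. Correlations without CT32 were added after the values were seen. Figures used matplotlib 3.10.9.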

Additional observations from a re-analysis of the deposited data

Results flagged for a closer look

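Among the day pools, Nfil3 in the CT32 pool lay far above the other 5, with a gap to the next pool of 0.735 of the whole range, above Dixon's critical value for 6 samples. It was the 1 such case in 16 groups of 6 pools (the day, night, first cycle and second cycle pools of the 4 genes), where chance gives about 0.8. At the same phase a day later, in CT56, it read 8.17, a difference of -0.33 (CT56 minus CT32).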

How the results depend on the processing

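Dbp passed the 24 h test in limma under all 24 alternatives but a period of 22 h, where its amplitude was 0.466 (adjusted p = 0.162). Tef, Hlf and Nfil3 did not pass under any of theirs. The count of genes past the threshold, 5, was 0 with a period of 22 h (583 genes at an unadjusted p under 0.05 in limma), 2 with one of 26 h, 4 with cycle as a replicate block and between 3 and 5 without single pools. It was at most 7 in the rest, and 3 without CT20, CT24, CT36, CT44 or CT48. In day against night and in second against first cycle, 0 alternatives gave a call for the 4 genes. Some small differences changed sign, and the cause was not tested. Day minus night of Tef was -0.0427 with quantile normalization, -0.0739 with array weights and between -0.0495 and 0.0575 without single pools, negative without CT32 or CT44. That of Nfil3 was 0.0192 with median centring and between -0.0524 and 0.0188 without single pools, positive without CT16, CT20, CT24, CT28, CT48 or CT56. The second minus the first cycle of Hlf was 0.0159 with array weights and between -0.0563 and 0.0193 without single pools, positive without CT32 or CT56. The amplitude of the Tef and Hlf difference lay between 0.0842 and 0.117 without single pools. The other 5 pairs passed under all their 15 alternatives. The labels give no replicate number that would pair pools, and cycle as a replicate block changed no call of the 4 genes. Depth over background is not given for these arrays.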
